A study of Mus musculus with 2 samples.

Results

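The genes described here are the apoptosis and p53 response genes on the array: the caspases, the BCL2 family, the apoptosome and its inhibitors, and p53 with its regulators and well-known targets. They were chosen by gene name, as every name made of Casp or Bcl2 with its number, together with a fixed set of further BCL2 family, caspase-control and p53 genes. The rule matched 41 of the 37074 gene names on the array. RNA from the brain of wild type embryos and of embryos homozygous for the luxoid mutation (*Plzf* lu/lu) was compared at stage E10.5 on 2 Agilent mouse expression arrays with 2 dyes each. The methods give the dissected tissue as forebrain and midbrain, and the labels give it as brain. Wild type RNA was labeled with Cy3 on both arrays and carried the strain name C57BL/6 in the labels. *Plzf* lu/lu RNA was labeled with Cy5 on both arrays and carried only the name luxoid, so its strain background is not given in the sources used here. The luxoid allele is a natural point mutation of *Plzf* that cuts its protein short, in every cell that would make it. No treatment was given to either group. The labels call the arrays biological replicates 1 and 2, and the number of embryos behind each is not given in the sources used here.

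The dyes were not exchanged, so a dye effect on a probe and an effect of the genotype cannot be told apart. With the strain background of *Plzf* lu/lu not given, an effect of strain cannot be told apart from the genotype either. Both arrays lay on 1 slide, and no batch could be compared. In bulk tissue, fewer cells of a type and less RNA per cell cannot be told apart either. Only 2 arrays stand behind each ratio, which bounds its precision: turning their signs in an exact test gives no p smaller than 0.5. The mutated gene, *Zbtb16* (*Plzf*), gave a processed signal of 433 in wild type and 172 in *Plzf* lu/lu on array 1, and of 546 and 211 on array 2. Its signal was therefore lower in *Plzf* lu/lu on both arrays, as a change of −1.33 and −1.37 on the log2 scale. The *Plzf* lu/lu signal on array 1 was under the signal filter given below, so *Zbtb16* was not tested. All 8 neural progenitor markers examined were well above background in every channel.

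Apoptosis is the cell's own program of dismantling. In the mitochondrial route, BH3-only proteins engage the anti-apoptotic BCL2 proteins, BAX and BAK form pores in the outer mitochondrial membrane, and released cytochrome c assembles with APAF1 into the apoptosome, which activates caspase-9 and then the executioner caspases. The transcription factor p53 feeds this route by inducing genes such as *Bax*, *Bbc3* and *Pmaip1*, and it is held down by MDM2, itself a product of a p53 target gene. In the embryonic brain, cell death removes progenitors and young neurons, and loss of *Mdm2* or excess p53 depletes neural progenitors.

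The values turn on *Bax*, which 2 separate probes of the array measured, and on *Trp53*, which 1 probe measured. The *Bax* probe shown is the dimmer of its probes and joins parts of the transcript that lie apart in the genome: its 60 bases span 156 bases on chromosome 7, from 52721469 to 52721624 on the minus strand (mm9), so it crosses an intron. The *Trp53* probe lies on chromosome 11 from 69403134 to 69403193 on the plus strand (mm9). The *Bax* call and its test rest on the brightest probe, given below by its position, and the probe shown is printed as the separate measurement of *Bax*. The *Trp53* probe is printed because every *Trp53* value rests on it. They are in lower case throughout, as no part of them is singled out.
Bax probe: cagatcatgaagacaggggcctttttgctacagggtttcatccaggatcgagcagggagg
Trp53 probe: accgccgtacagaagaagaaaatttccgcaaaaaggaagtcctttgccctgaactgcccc

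Signals are given after the background subtraction and dye normalization of the scanner software, in arbitrary units. The arrays were not brought to a common scale, so signals of different arrays are set side by side only as a description. A ratio is *Plzf* lu/lu over wild type on 1 array, and a log2 ratio below 0 means a lower signal in *Plzf* lu/lu. A gene was tested where its brightest probe gave, on each array and in each channel, a processed signal above 200 and a signal-to-noise ratio of 5 or more. This left 10600 of all gene names and 25 of the 41 apoptosis and p53 response genes. A gene was called where its ratio passed 1.3-fold in the same direction on each array. Every tested gene was also fitted with limma, whose variance is shared among genes, and p-values were adjusted by the Benjamini-Hochberg method over all 10600 genes.

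*Bax* was the only one of the 25 tested genes called, and it was lower in *Plzf* lu/lu. Among all tested genes, 0.736% were called lower, and 2.58% were called higher. None of the 25 was called higher. *Perp* passed 1.3-fold on both arrays but in opposite directions, which 0.198% of all tested genes did. No member reached an adjusted p under 0.05 in limma, and 0.0283% of all tested genes did. At an unadjusted p under 0.05, 4 of the 25 were higher (*Trp53inp1*, *Mdm2*, *Bcl2l1* and *Casp2*) and 2 were lower (*Bax* and *Trp53*). Of all tested genes, 15.7% were higher and 12% were lower at that level. An adjusted p under 0.1 was reached by 5 of the 25 members and by 12.2% of all tested genes. The median log2 ratio of the 25 members was 0.11 on array 1 and −0.029 on array 2, beside 0.02 and −0.0047 over all tested genes. Of the 25, 9 had a ratio above 1 on both arrays and 8 a ratio below 1 on both, or 36% and 32%, beside 37.3% and 35.4% of all tested genes.

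**Figure D1:**
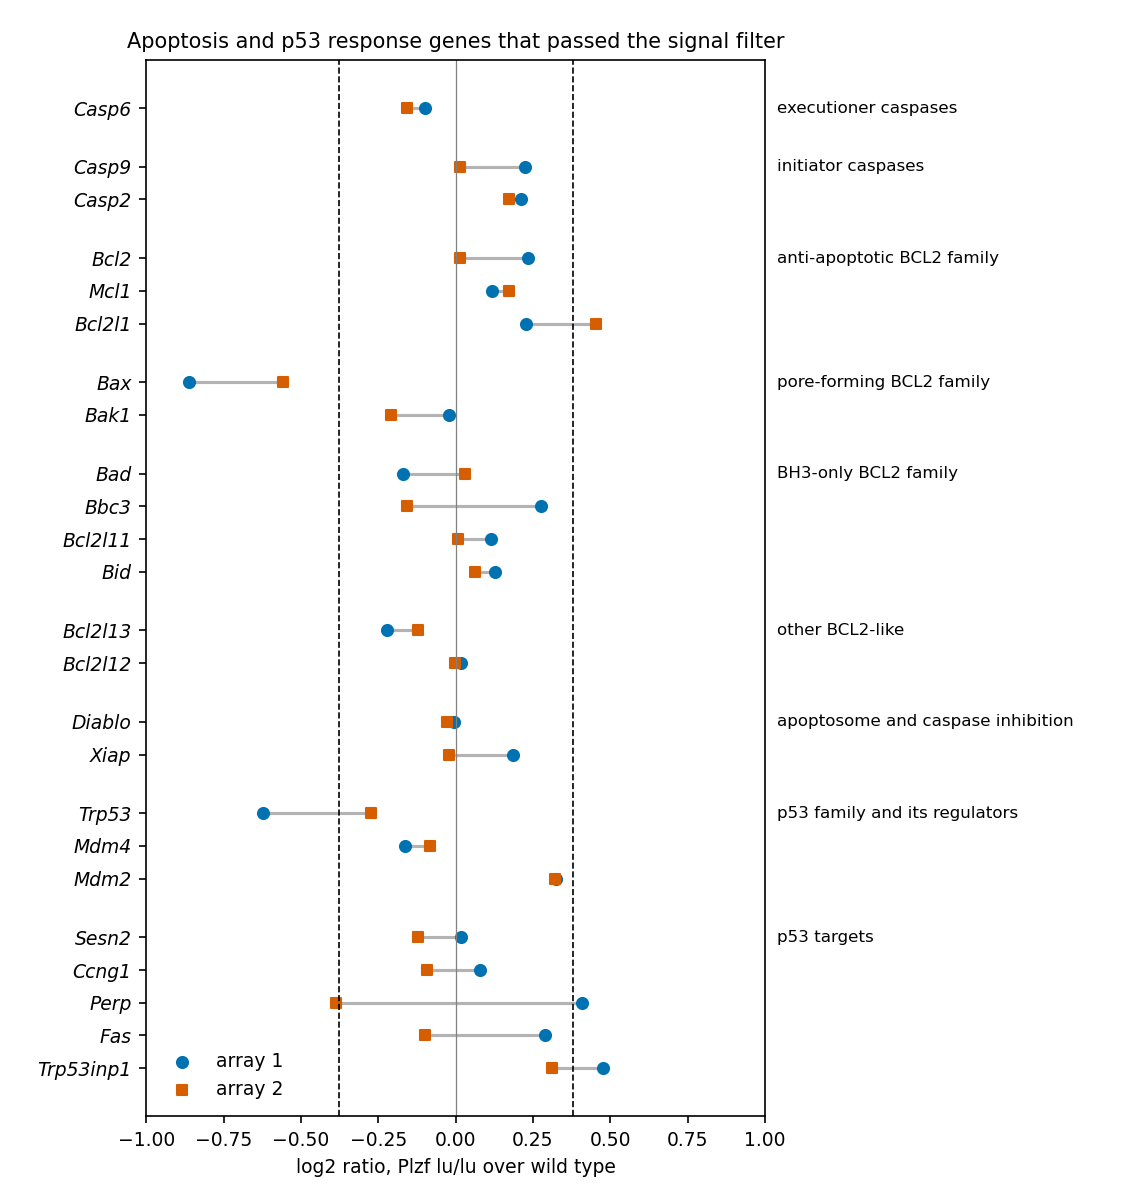
Log2 ratio of *Plzf* lu/lu over wild type (horizontal axis) for 24 of the 25 tested apoptosis and p53 response genes, grouped by role, with a circle for array 1, a square for array 2 and dashed lines at 1.3-fold. *Bax* alone lies beyond the left line on both arrays, and *Perp* lies beyond both lines on opposite sides.

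The pore-forming proteins BAX and BAK are the step at which the mitochondrial membrane is breached. On array 1 the brightest *Bax* probe gave a signal of 2829 in wild type and 1558 in *Plzf* lu/lu. On array 2 it gave 2799 and 1900. The wild type signals of the arrays were nearly the same, and both *Plzf* lu/lu signals lay below both wild type signals. The ratio was 0.551 on array 1 and 0.679 on array 2, and the mean log2 ratio was −0.71 (SE 0.10, n = 2 arrays, limma adjusted p = 0.051). The call was lost at a 1.5-fold threshold. It was also lost with normexp background correction and centring on all gene spots, which moved the median of all tested genes to 0.55 and gave a mean of −0.08 for *Bax*, or −0.63 relative to that median. By mean log2 ratio, *Bax* ranked 11 among the 78 genes called lower. The second probe, the one whose sequence crosses an intron, gave 1450 in wild type and 746 in *Plzf* lu/lu on array 1, and 1339 and 933 on array 2. Its log2 ratios of −0.96 and −0.52 had the direction of the brightest probe (−0.86 and −0.56) on both arrays, and each probe passed 1.3-fold on each array. *Bak1*, the second pore-forming gene, gave 1205 and 1187 on array 1 and 1338 and 1158 on array 2, so its log2 ratios were −0.02 and −0.21. It was not called (limma adjusted p = 0.407).

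**Figure D2:**
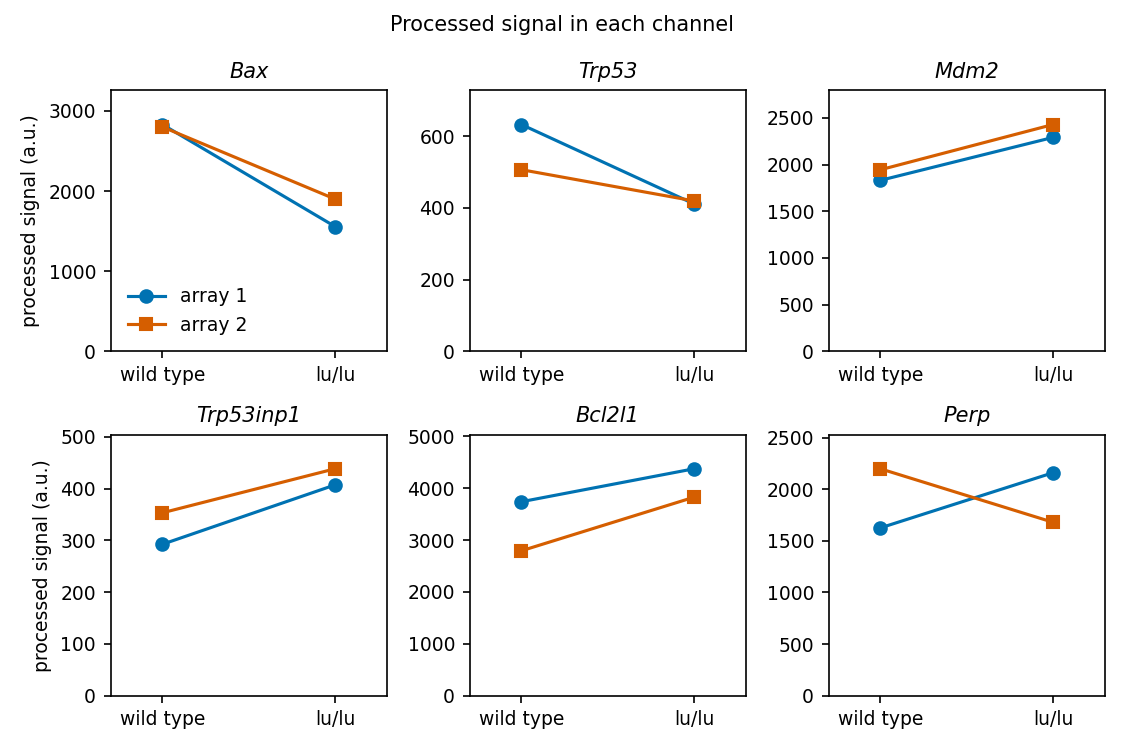
Processed signal in arbitrary units (vertical axis, from 0) of 6 genes in wild type and *Plzf* lu/lu, with 1 line for each array. *Bax* and *Trp53* slope down and *Mdm2*, *Trp53inp1* and *Bcl2l1* slope up on both arrays, while the lines of *Perp* cross.

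*Bax* lies on chromosome 7, and its brightest probe spans 52717122 to 52717181 (mm9). Within 500 kb on either side, 37 other genes were tested. None was called higher or lower, beside 2.58% and 0.736% of all tested genes, and at an unadjusted p under 0.05 in limma 2 were higher and 6 were lower, beside 15.7% and 12%. Their mean log2 ratios ran from −0.34 for *Pth2* to 0.29 for *Ppfia3*. The genes whose probes lie closest gave −0.03 and 0.12 (*Ftl1*) and −0.25 and −0.31 (*Gys1*) on arrays 1 and 2. The BCL2-like gene *Bcl2l12*, also within this window, gave 0.02 and −0.00.

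The anti-apoptotic members hold BAX and BAK in check. *Bcl2l1*, which encodes BCL-XL and is required for the survival of young neurons and red cells, gave 3739 in wild type and 4375 in *Plzf* lu/lu on array 1, and 2794 and 3827 on array 2. Its log2 ratios were 0.23 and 0.45 (mean 0.34, SE 0.09, limma adjusted p = 0.092), and only array 2 passed 1.3-fold. Here the wild type signals themselves differed between the arrays, so that the wild type signal of array 1 nearly reached the *Plzf* lu/lu signal of array 2. *Bcl2l1* had 4 further probes, all well above background but under the signal filter, and 3 of them were lower in *Plzf* lu/lu on both arrays, with log2 ratios of −0.49 and −0.20, −0.41 and −0.53, and −0.32 and −0.19. The other gave −0.46 and 0.37. The direction of *Bcl2l1* therefore rests on its brightest probe, and with the mean over all 5 probes the log2 ratio was −0.16. *Mcl1*, a short-lived guardian of progenitors, gave log2 ratios of 0.12 and 0.17 by its brightest probe and of −0.09 and 0.04 by a second one that also passed the filter. *Bcl2* gave 0.23 and 0.01 by its brightest probe and −0.13 and −0.13 by a second one that passed the filter. *Bcl2l2* stayed under the signal filter and *Bcl2l10* was not well above background in any channel.

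**Figure D3:**
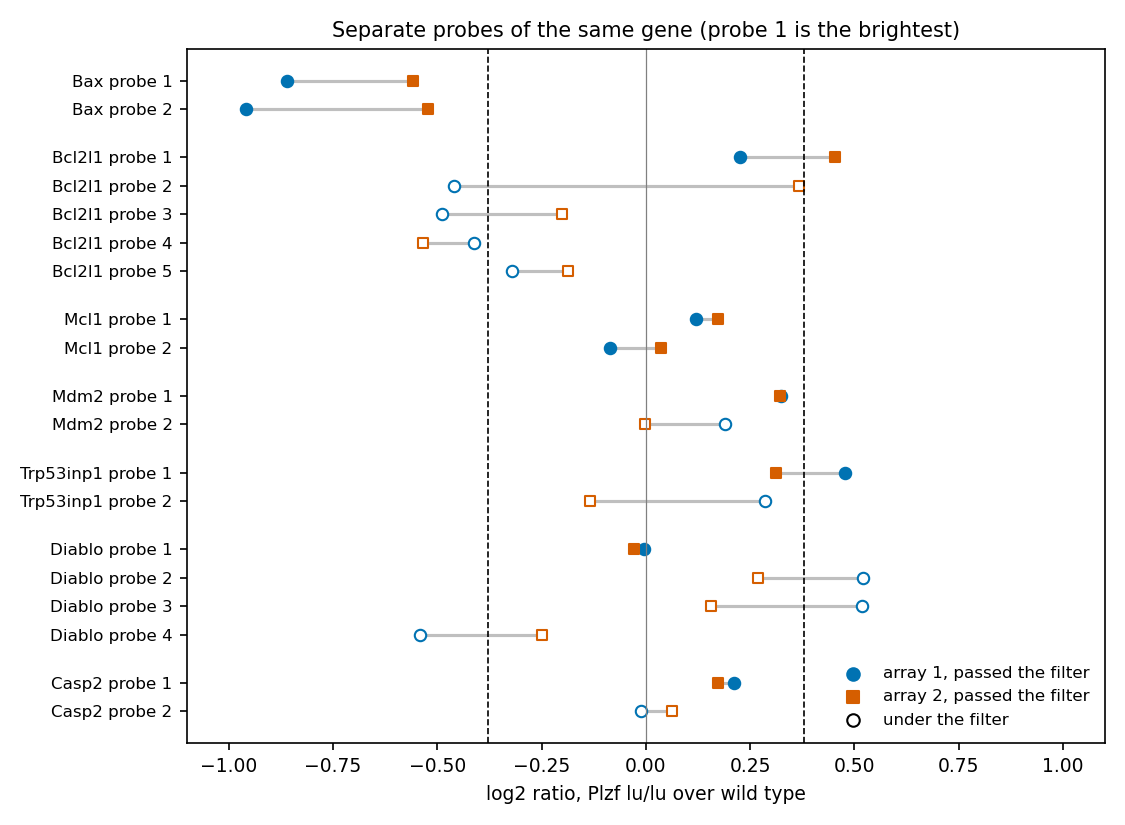
Log2 ratio of *Plzf* lu/lu over wild type for separate probes of the same gene that were well above background in every channel, with circles for array 1, squares for array 2, open symbols for probes under the signal filter and dashed lines at 1.3-fold. Both *Bax* probes lie beyond the left line on both arrays, while the brightest *Bcl2l1* probe lies opposite to 3 of its 4 dimmer probes on both arrays.

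Among all members, 23 had more than 1 probe, and 15 of the tested members had another probe well above background. These 27 other probes had the same sign of the mean log2 ratio as the brightest probe of their gene in 13 cases and the opposite sign in 14. Most were under the signal filter: only 4 tested members had more than 1 probe above it. *Diablo* shows the spread, with −0.00 and −0.03 by its brightest probe, 0.52 and 0.27 and 0.52 and 0.16 by 2 dim probes, and −0.54 and −0.25 by the third.

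The BH3-only proteins sense stress and set off the pore-forming step. None of the tested 4 was called, and their mean log2 ratios lay between −0.07 and 0.09. Of these 4, *Bid*, which links death receptors to the mitochondria, had the largest mean. It gave 240 in wild type and 263 in *Plzf* lu/lu on array 1, and 233 and 243 on array 2. *Bbc3* (PUMA), a p53 target, gave 0.28 on array 1 and −0.16 on array 2. *Bcl2l11* (BIM) gave 0.11 and 0.01, and *Bad* gave −0.17 and 0.03. *Pmaip1* (NOXA), another p53 target, was under the filter in wild type on array 2, and *Bik* was not well above background in wild type on 1 of the arrays. Of the other BCL2-like genes, *Bcl2l13* gave −0.22 and −0.12 and *Bcl2l12* gave the values above, while *Bcl2l14* and *Bcl2l15* were under the filter.

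The caspases are the proteases that carry out the program. The executioner *Casp6* gave 1289 in wild type and 1202 in *Plzf* lu/lu on array 1, and 1298 and 1165 on array 2. Both *Plzf* lu/lu signals lay below both wild type signals, with log2 ratios of −0.10 and −0.16 (limma adjusted p = 0.312), within 1.3-fold. The initiator *Casp2* gave 3188 and 3690 on array 1 and 3319 and 3744 on array 2, with log2 ratios of 0.21 and 0.17 (mean 0.19, SE 0.07, limma adjusted p = 0.170). With the mean over its probes, the second under the filter, *Casp2* gave 0.11. *Casp9*, the caspase of the apoptosome, gave 0.22 and 0.01. *Casp8*, the initiator of the death receptor route, missed the filter with 208 in wild type and 154 in *Plzf* lu/lu on array 1 and 166 and 134 on array 2, and was not tested. The inflammatory caspases *Casp1*, *Casp4* and *Casp12* and the skin caspase *Casp14* were all under the filter, and *Casp4* was not well above background in any channel.

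Neither gene tested of the apoptosome and its control was called. *Xiap*, a direct inhibitor of caspases, had the larger mean, with 849 in wild type and 966 in *Plzf* lu/lu on array 1 and 1011 and 997 on array 2. *Diablo*, which relieves that inhibition, gave the values above. *Apaf1*, the scaffold of the apoptosome, was under the filter.

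Of p53 and its regulators, *Trp53* was lower and *Mdm2* was higher on both arrays, and neither passed 1.3-fold on both; with normexp and centring on all gene spots, where that median was 0.55, *Trp53* gave 0.05 and *Mdm2* 0.93. *Trp53* gave 632 in wild type and 411 in *Plzf* lu/lu on array 1, and 506 and 419 on array 2. The *Plzf* lu/lu signals were close to each other, and the wild type signals were not. The log2 ratios were −0.62 and −0.27 (mean −0.45, SE 0.10, limma adjusted p = 0.082). *Mdm2*, the ubiquitin ligase that marks p53 for degradation, gave 1831 in wild type and 2290 in *Plzf* lu/lu on array 1, and 1944 and 2428 on array 2. Its ratio was 1.25 on array 1 and 1.25 on array 2 (mean log2 ratio 0.32, SE 0.07, limma adjusted p = 0.081). With the mean over its probes, the second of them dim, *Mdm2* gave 0.21. *Mdm4*, a partner of MDM2 in restraining p53, gave −0.16 and −0.08, and *Trp73*, a relative of p53 found in the developing brain, was under the filter.

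Of the p53 targets among the members, *Trp53inp1*, which promotes p53-dependent death and autophagy, gave 293 in wild type and 407 in *Plzf* lu/lu on array 1, and 353 and 438 on array 2. Both *Plzf* lu/lu signals were above both wild type signals, with log2 ratios of 0.48 and 0.31 (mean 0.39, SE 0.08, limma adjusted p = 0.070). A second *Trp53inp1* probe, well above background but under the signal filter, gave 0.28 and −0.13. The mean log2 ratio was 0.23 with the mean over probes and 0.24 with normexp and centring on the tested genes. *Ccng1* gave 0.08 and −0.09, and *Sesn2*, a brake on mTORC1, gave 0.02 and −0.12. *Cdkn1a*, which encodes the cell cycle inhibitor p21, and the death receptor *Eda2r* were under the filter. The log2 ratios of the tested members correlated between the arrays across genes with Pearson's r = 0.603 and Spearman's rho = 0.465 (25 genes, which share the arrays and are not replicates), beside 0.553 and 0.601 over all tested genes.

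**Figure D4:**
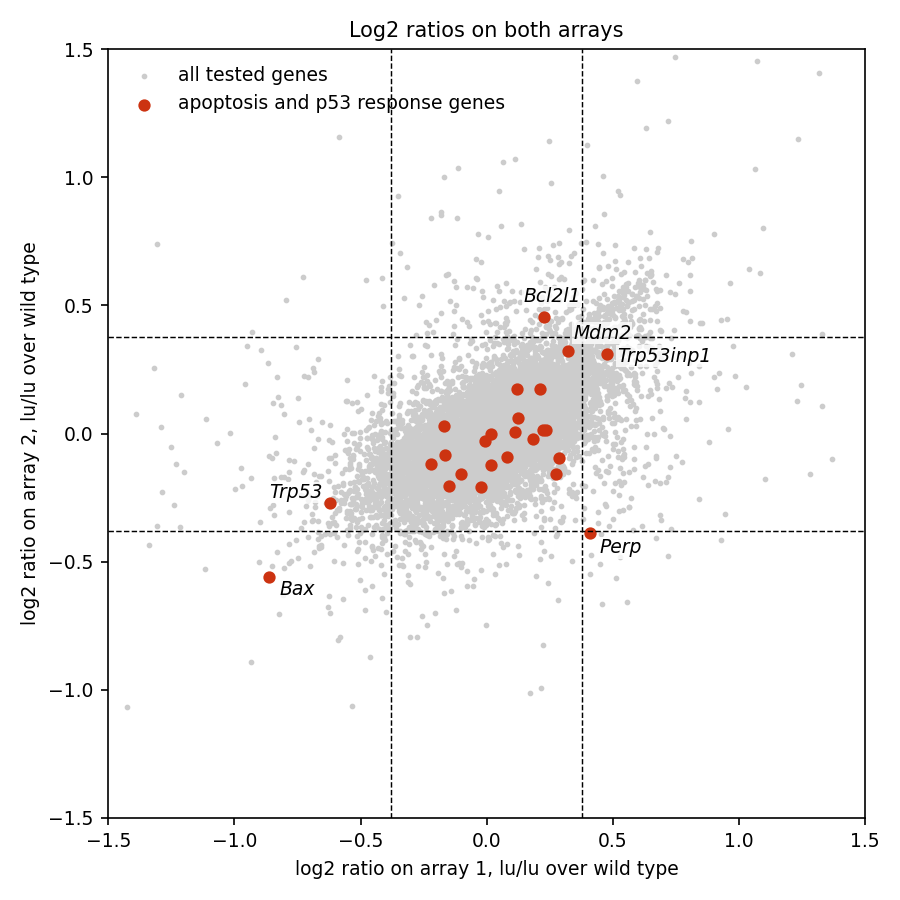
Log2 ratio on array 1 (horizontal axis) against array 2 (vertical axis) for all 10600 tested genes in grey and the 25 apoptosis and p53 response genes in red, with dashed lines at 1.3-fold and 5 other tested genes outside the axes. *Bax* lies in the lower left corner beyond both lines, and *Perp* in the lower right.

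The value under the name *Fas* needs a caution. Its brightest probe, with log2 ratios of 0.29 and −0.10, lies on chromosome 4 in the deposited annotation, and its description names a retrotransposable element. RefSeq places *Fas*, the death receptor, on chromosome 19. Neither probe on chromosome 19 was well above background in all 4 channels, so no level of the receptor's own transcript is given. The chromosome 4 probe still stands for *Fas* in the counts, medians and correlations of the tested members.

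*Perp*, a p53 target of cell junctions that is abundant in skin, gave 1625 in wild type and 2159 in *Plzf* lu/lu on array 1, and 2198 and 1680 on array 2. Its log2 ratios were 0.41 and −0.39, so the direction depended on the array. The surface ectoderm markers had a median log2 ratio over 5 tested of 6 genes of 0.54 on array 1 and −0.30 on array 2. *Krt8*, *Krt18*, *Epcam* and *Cdh1* were above 0 on array 1 and below 0 on array 2, as *Perp* was, while the basal keratins were not: *Krt14* gave −0.01 and 0.53, and *Krt5*, under the filter, gave 0.20 and 0.29. Their summed signal was 7796 in wild type and 11920 in *Plzf* lu/lu on array 1, and 11310 and 8665 on array 2. Their brightest gene, *Krt18*, gave 0.69 and −0.34, and *Cdh1* gave the largest mean (1.11 and −0.18). All 6 were well above background in every channel, and their part in the *Perp* values was not tested.

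**Figure D5:**
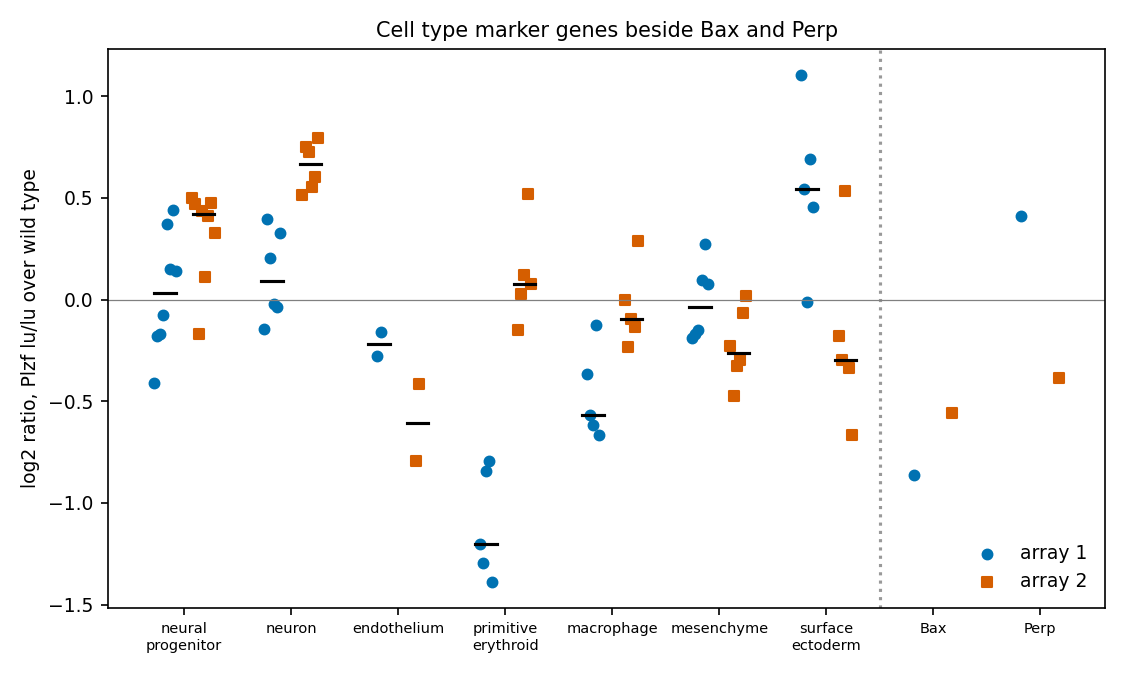
Log2 ratio of *Plzf* lu/lu over wild type (vertical axis) of the tested marker genes of 7 cell types, with circles for array 1, squares for array 2 and bars at the medians, beside *Bax* and *Perp*. *Perp* and the surface ectoderm median lie above 0 on array 1 and below 0 on array 2, and *Bax* lies below 0 on both.

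Markers of other tissues also differed between the channels, and every marker of the 7 lists was well above background in all 4 channels. The endothelial markers, with 2 of 9 genes tested, had medians of −0.22 and −0.60. *Egfl7*, the brightest, gave −0.16 and −0.41. Of the 2 tested, *Cldn5* had the larger mean change (−0.28 and −0.80). Some untested markers had larger ones, such as *Kdr* at −0.54 and −0.99. Their summed signal was 4701 in wild type and 4078 in *Plzf* lu/lu on array 1, and 5372 and 3787 on array 2. The macrophage markers, with 5 of 11 tested, had medians of −0.57 and −0.10, and *Ptprc*, the brightest, gave −0.12 and −0.14. Of the 5 tested, *Csf1r* had the largest mean change, at −0.57 and −0.23. Some untested markers had larger ones, such as *C1qa* at −0.77 and −0.30. Their summed signal was 4357 and 3267 on array 1 and 3324 and 3173 on array 2. The primitive erythroid markers, with 5 of 7 tested, had medians of −1.20 and 0.08; *Hbb-y*, the brightest, gave −0.80 and 0.52, and *Alas2*, which makes haem, had the largest mean at −1.20 and −0.15. Their summed signal was 347100 and 185600 on array 1 and 147600 and 178800 on array 2. The mesenchyme markers, all 6 tested, had medians of −0.04 and −0.26, with *Col3a1*, the brightest, at −0.17 and −0.47. Their summed signal was 7212 and 6779 on array 1 and 6597 and 5293 on array 2.

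The neural progenitor markers, all 8 tested, had medians of 0.03 and 0.42, with *Sox2* called higher (0.44 and 0.47) and *Hes5*, the brightest, at −0.18 and 0.47. *Msi1* gave −0.17 on both arrays and *Fabp7* −0.41 and 0.50. The progenitor markers summed to 26280 in wild type and 24070 in *Plzf* lu/lu on array 1, and 24930 and 33990 on array 2. On array 1 the sum was lower in *Plzf* lu/lu, and *Hes5*, *Fabp7*, *Nes* and *Msi1* were below 0. *Sox1*, *Sox2*, *Sox3* and *Pax6* were above 0 on both arrays. The neuron markers, with 6 of 8 tested, had medians of 0.09 and 0.66, with *Elavl4* called higher (0.40 and 0.75) and *Stmn2*, the brightest, at −0.04 and 0.60. Untested *Neurod1* had a larger change, at 1.40 and 1.47 (1.28 and 1.42 with the GC trend removed). Untested *Dcx* gave −0.48 and 0.95. The neuron markers summed to 7018 and 7578 on array 1 and 6196 and 9923 on array 2. With a GC trend across probes removed, the calls of *Sox2* and *Elavl4* were lost, at 0.32 and 0.28 on array 1. The part of the cell mixture in the *Bax*, *Trp53* and *Mdm2* values was not tested.

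The wider p53 pathway was followed through lists of genes that are not among the members. Of 22 other p53 targets, 12 were tested, 0 were called higher and 1 was called lower, beside 2.58% and 0.736% of all tested genes. The 1 called was *Phlda3*, a p53 target that restrains AKT, with 1297 in wild type and 818 in *Plzf* lu/lu on array 1, and 1064 and 780 on array 2. Both *Plzf* lu/lu signals lay below both wild type signals, with log2 ratios of −0.66 and −0.45 (mean −0.56, SE 0.09, limma adjusted p = 0.052). The median over the 12 was −0.02 on array 1 and 0.05 on array 2. Of the 12, 5 were above 1 and 5 were below 1 on both arrays, beside 37.3% and 35.4% of all tested genes.

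Of 13 genes listed for upstream control of p53, among them the p53 relative *Trp63*, 11 were tested and none was called. Their medians were 0.16 and 0.10, and 9 of the 11 were above 1 on both arrays, beside 37.3% of all tested genes. Of the 11 tested, *Usp7*, a deubiquitinase that stabilises MDM2 and p53, had the largest mean. It gave 1978 in wild type and 2606 in *Plzf* lu/lu on array 1, and 2097 and 2589 on array 2. Its limma adjusted p was 0.075. Of 27 other apoptosis regulators, 18 were tested and none was called; at an unadjusted p under 0.05, 3 were higher and 2 were lower, beside 15.7% and 12% of all tested genes. *Endog*, a mitochondrial nuclease, had the lowest p, with log2 ratios of −0.32 and −0.32 (limma adjusted p = 0.082). *Bmf*, a BH3-only gene, had the largest mean and a large difference between the arrays, with log2 ratios of 0.79 and 0.17. Of 7 genes of the integrated stress response, a route that can induce apoptosis genes without p53, 3 were tested and *Atf4*, its central transcription factor, was called higher. *Atf4* gave 11378 in wild type and 15014 in *Plzf* lu/lu on array 1, and 10054 and 13291 on array 2 (log2 ratios 0.40 and 0.40, limma adjusted p = 0.059). With the GC trend removed its log2 ratios were 0.28 and 0.35, and the call was lost. Its targets *Ddit3*, *Trib3* and *Chac1* were under the filter, and *Asns* and *Ddit4* gave 0.17 and −0.03, and 0.12 and 0.19.

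The log2 ratio followed the GC content of the probe across all tested genes, with Spearman's rho of −0.376 on array 1 and −0.197 on array 2. The *Mdm2* and *Trp53inp1* probes held 35% and 36.7% GC, and the *Bax* and *Trp53* probes 43.3% and 50% GC. With this trend removed, the mean log2 ratio was −0.70 for *Bax*, −0.38 for *Trp53*, 0.24 for *Mdm2* and 0.33 for *Trp53inp1*, so each kept its direction.

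The promoters were searched because p53 acts on many of these genes through DNA. RefSeq sequences (GRCm38.p6) of the 250 bases before the start were held for 34 of the 41 members and searched for the p53 decamer consensus, of 10 letters, which reads the same on both strands. A full p53 response element joins a pair of such decamers, and single decamers were counted here. A decamer was present in 5 of the 34 members (*Bax*, *Ccng1*, *Cdkn1a*, *Mdm2* and *Trp53*), or 14.7%, and in 8.2% of 27025 genes. Of the members in the role group of p53 targets, 2 of 5 held one, and of the other p53 targets, 6 of 17. *Bax* and *Mdm2*, p53 targets placed in other role groups, are not among these 5. The decamer in *Bax* begins 201 bases before the start; the 250 bases lie at chr7:45466899-45467148 on the minus strand (GRCm38.p6) and are shown with the decamer in capitals, because *Bax* is the member called.
Bax promoter: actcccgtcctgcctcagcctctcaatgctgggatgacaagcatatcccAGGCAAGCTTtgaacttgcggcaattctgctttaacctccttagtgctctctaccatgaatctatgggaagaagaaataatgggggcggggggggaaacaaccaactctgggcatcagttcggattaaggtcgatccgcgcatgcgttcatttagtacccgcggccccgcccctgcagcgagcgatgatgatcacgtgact

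The decamers in the other members are given alone, each in capitals throughout.
Mdm2: GAACTTGCCT
Trp53: GGACTTGCCC
Ccng1: GGGCAAGCCT
Cdkn1a, first: GGACTAGCTT
Cdkn1a, second: GAACATGTCT

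Members with a match differed in direction, with *Bax* and *Trp53* lower, *Mdm2* higher and *Ccng1* near 0. A match in this window is a description of the letters and not of binding.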

How the data were processed

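Both arrays carried 1 sample of each genotype. Per the file headers, the authors took the scans through Feature Extraction 10.7.3.1: the local background was removed, dim spots received surrogate values, and rank-consistent LOWESS balanced the dyes inside each array. No step set the arrays on a common scale. Used here were the deposited processed intensity, raw spot intensity and local background intensity, and the Cy5 over Cy3 ratio, deposited as log10 in the scanner output and as log2 (within 0.005) in a separate table. Every column of that table could be assigned to a sample. Probe positions were those deposited (mm9).

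Control spots were dropped, as were 137 outlier spots from array 1 and 126 from array 2. Log2 values of repeated spots were averaged for each probe, and the brightest probe represented its gene. Signal-to-noise was the mean spot signal minus the median local background, over the SD of the background pixels. Of 59305 gene spots, 36936 were well above background in wild type and 43546 in *Plzf* lu/lu on array 1, and 44100 and 44318 on array 2. No spot was saturated. Log2 ratios were fitted in limma 3.58.1 under R 4.3.3 (an intercept in lmFit, eBayes moderation). With 1 residual degree of freedom, the test rests on the pooled variance. The procedure was tested on simulated data. Genes were selected to be named with values where they were called, were members at an unadjusted p under 0.05, had the largest mean of a role group or of a list with none called, or were the brightest marker of a cell type. Some genes that this rule selects are not reported here. All other genes given with values were chosen after those were seen. The members, like the pathway and marker lists, were chosen with earlier results of these data known. The alternatives were normexp background correction (offset 50) with loess or median centring, the deposited log2 values, other filters, the mean over probes, removal of the GC trend (lowess, span 0.667), 1.5-fold, the mean of the arrays, each array alone, eBayes with trend and unpaired channels. Other steps used the R package data.table (version 1.17.8), jsonlite 2.0.0, Python 3.11.15, numpy 2.4.6, pandas 2.3.3 and matplotlib 3.10.9. The protein assays, histology and behaviour of the study were not analysed here.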

Additional observations from a re-analysis of the deposited data

How the results depend on the processing

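*Bax* was called lower under every alternative run except normexp with centring on all spots and the 1.5-fold threshold. Normexp with centring on all gene spots shifted the median of all tested genes to 0.55. It called 6698 genes higher and 4 lower, 12 members higher and 0 lower, and 9644 genes and 23 members in limma, and it gave a member median of 0.53; relative to the shifted median, *Bax* stood at −0.63. It gave 0.95 for *Bcl2l1* and 0.79 for *Casp2* and for *Trp53inp1*. Normexp with centring on the tested genes was a choice made after seeing the data. With it, 455 genes were called higher and 120 lower, and *Bax* remained the 1 member lower. In limma that combination of background correction and centring called 1514 genes and 4 members (*Bax*, *Mdm2*, *Trp53* and *Bcl2l1*).

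Genes called higher and lower numbered 586 and 481 with the well above background filter, 1695 and 2173 without a filter, 41 and 12 at 1.5-fold, and 498 and 245 by the mean of the arrays. The mean over probes called 142 higher. Without a filter 2 members were lower, the second being *Casp4*, which was not above background. At 1.5-fold 0 members were lower. By the mean of the arrays 1 member was higher (*Trp53inp1*) and 2 were lower (*Bax* and *Trp53*). A single array called 477 to 875 genes higher and 208 to 592 lower, with 1 to 2 members higher and 2 lower: *Bcl2l1* higher and *Perp* lower without replicate 1, *Perp* and *Trp53inp1* higher and *Trp53* lower without replicate 2, and *Bax* lower in both. The member median was then −0.029 to 0.11.

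In limma, 0 genes passed an adjusted p of 0.05 with normexp and loess, the deposited log2 table, the well above background filter, no filter or the mean over probes, where 3182, 2489, 3956, 3380 and 1840 had an unadjusted p under 0.05. With the GC trend removed 1 gene passed, and with an intensity trend in eBayes 393 genes and 1 member (*Bax*, adjusted p = 0.029) passed. With the channels as separate samples (no replicate block), 0 genes passed, and 2590 genes and 5 members had an unadjusted p under 0.05. Under the alternatives not named with a member count, 0 members passed. Over the alternatives on both arrays the adjusted p of *Bax* ran from 0.016 to 0.578, and *Bcl2l1* turned to −0.16 with the mean over probes. The cause of these differences was not tested. Signal limits 16 members, which the filter left untested.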

Other observations

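*Casp8* gave log2 ratios of −0.43 and −0.31 with a wild type signal that crossed the filter on array 1 only. *Casp14* gave −0.44 and −0.37 and *Bcl2l2* gave 0.20 and 0.31, both with every signal under 200 and well above background. The upstream kinase *Chek2* gave −0.37 and −0.42 at signals between 59.2 and 79.3, and *Ddit4l* gave 0.54 and 0.38 at signals between 63.2 and 93.3. None of these was tested.

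A second *Bcl2l1* probe maps to 47 bases of chromosome 2, of which 43 overlap the brightest probe. The brightest probe gave 0.23 and 0.45 and the overlapping one −0.32 and −0.19, with signals between 114 and 146. This pair and the *Fas* probe on chromosome 4 were noticed after the values had been seen.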
